A study of Mus musculus with 12 samples.

Results

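Dhrs9 and 8 other genes that handle vitamin A were followed in brown fat of wild type and Zbtb7b knockout mice, at room temperature and after a short cold exposure. The 9 genes, of 22180 measured on the arrays, are Dhrs9, Dhrs3, Rdh5, Rdh10, Aldh1a1, Aldh1a2, Aldh1a3, Cyp26b1 and Stra6. Each was read through the probe set annotated with its symbol and no other gene's, and each had 1 such probe set. Dhrs9 was selected on its difference between knockout and wild type at room temperature, so that difference is described here and not tested. The other 8 were grouped with it by their known roles, with earlier results of these data in view, so their tests and counts are not free of selection.

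All mice were males of 10 weeks on standard chow. The 4 groups, each of 3 arrays, were wild type (WT) at 22 °C, Zbtb7b knockout (KO) at 22 °C, WT after 4 h at 4 °C, and KO after 4 h at 4 °C. Zbtb7b encodes a zinc finger transcription factor of the BTB family. How the knockout allele was made, and in which cells it acts, is not given in the sources used here. The titles call the arrays biological replicates and another label numbers them as pools, so the number of animals behind each array is not known; p-values here gauge only how far these arrays scatter, which may be technical. That second label also names liver, and a knockout of a different gene on some arrays, whereas title, source and tissue label all name brown fat. On all 12 arrays the brown fat gene Ucp1 was bright (11.55 to 12.95 log2 signal) and the liver gene Alb was dim (1.20 to 2.75). Zbtb7b itself read 4.26 to 4.76 on the WT arrays and 2.96 to 3.62 on the KO arrays, with no overlap. Arrays of 1 group correlated with each other at r of 0.970 to 0.985 across genes, and array medians lay between 2.63 and 2.83.

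Retinol, the alcohol form of vitamin A, reaches cells on a plasma carrier and is taken up through receptors such as Stra6. Retinol dehydrogenases oxidise it to retinaldehyde, reductases such as Dhrs3 turn retinaldehyde back, and the Aldh1a enzymes oxidise retinaldehyde to retinoic acid. Retinoic acid activates the RAR and RXR nuclear receptors until Cyp26 enzymes break it down. In brown adipocytes retinoic acid is a known inducer of Ucp1, the uncoupling protein that lets mitochondria release heat.

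Of the 9 genes, 4 were clearly above the arrays' background, with a mean of at least 5 on the log2 scale over the 12 arrays: Dhrs9, Dhrs3, Rdh10 and Aldh1a1. For comparison, 38.2% of all genes reached that mean. The other 5 (Rdh5, Aldh1a2, Aldh1a3, Cyp26b1 and Stra6) had all group means under 4, near the arrays' median signal. The members' counts below rest mostly on the first 4, and no fold is given where a group mean is under 4.

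Dhrs9 encodes a short-chain dehydrogenase of the endoplasmic reticulum that oxidises retinol and hydroxysteroids. Its upstream sequence is shown because Dhrs9 moved more than any other of the 9 genes, and that of Aldh1a1 because it was the other member brighter in WT after cold. Both are the 250 bases before the RefSeq gene start on GRCm38.p6, on the gene's strand, 5′ to 3′. They cover chr2:69380212-69380461 for Dhrs9 and chr19:20492333-20492582 for Aldh1a1, both on the plus strand. Capitals mark the letters that matched a searched motif on either strand.
Dhrs9: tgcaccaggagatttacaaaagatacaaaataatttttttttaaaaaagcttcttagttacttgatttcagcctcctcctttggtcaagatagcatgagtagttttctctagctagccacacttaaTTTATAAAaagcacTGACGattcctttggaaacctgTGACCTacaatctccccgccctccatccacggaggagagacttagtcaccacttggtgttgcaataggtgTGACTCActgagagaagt
Aldh1a1: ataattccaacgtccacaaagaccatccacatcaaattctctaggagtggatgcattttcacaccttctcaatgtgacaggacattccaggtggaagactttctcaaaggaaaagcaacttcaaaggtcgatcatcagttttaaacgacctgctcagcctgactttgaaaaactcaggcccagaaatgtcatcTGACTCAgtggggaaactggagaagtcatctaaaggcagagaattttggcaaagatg

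The motifs were searched on both strands in these 250 bases, and a match is a description of letters only. The Dhrs9 sequence held TGACG, the core of the cAMP response element, at -110 to -106 from the start. That motif stands in 17.8% of the 32851 promoter entries of the table. The AP-1 element TGACTCA lay at -18 to -12 in Dhrs9 and at -57 to -51 in Aldh1a1, and 4.46% of all entries hold it. The nuclear receptor hexamer AGGTCA was found on the minus strand of Dhrs9 at -88 to -83, against 14.0% of entries. The TATA box TATAAA matched Dhrs9 on the plus strand at -122 to -117 and on the minus strand at -124 to -119, which overlap, and it also matched Cyp26b1 (12.4% of entries). The core is part of the full cAMP response element, and the hexamer is part of the Nr4a element and of the direct repeats. No member entry held the full cAMP response element TGACGTCA (1.55% of entries), the Nr4a receptor element AAAGGTCA (1.34%) or the STAT element TTCNNNGAA (7.02%). Direct repeats of the hexamer were not found either, spaced by 1 base (0.0335% of entries), by 2 bases or by 5 (0.00913% each). The table had 13 entries for 7 of the 9 genes, without Rdh10 and Aldh1a3.

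At room temperature Dhrs9 was dimmer on every KO array than on any WT array, and after cold it was bright in both genotypes. The WT arrays at 22 °C read 7.03, 5.95 and 6.05 log2 signal, and the KO arrays 3.62, 2.77 and 3.59. The KO arrays thus lay near the arrays' median, and the groups did not overlap. The means were 6.35 ± 0.60 in WT and 3.33 ± 0.48 in KO (SD, n = 3 each). The difference of -3.02 ± 0.33 (SE; 95% confidence interval -3.73 to -2.31) is the one that chose the gene, and it was rank 4 from the lowest of all 22180. It lay between -3.22 and -2.67 when any 1 of the 6 arrays was left out. In bulk tissue, fewer cells of a type and less RNA per cell cannot be told apart.

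After 4 h at 4 °C, Dhrs9 read 11.04, 10.90 and 11.15 on the WT arrays. The KO arrays read 10.84, 10.91 and 9.98. KO replicate 3 was the lowest, and the groups overlapped. The mean was 11.03 ± 0.13 in WT and 10.57 ± 0.52 in KO (SD, n = 3 each). KO was below WT by a difference of -0.46 ± 0.33 (SE), with an interval of -1.16 to 0.25 and a limma adjusted p of 0.572. This is the comparison that used no array of the one that chose the gene, and it did not pass the threshold. The difference was -0.16 without KO replicate 3. That array also had the highest mean of 10 neutrophil genes, 4.11 against 1.84 to 2.65 on the other arrays, and the part of these cells was not tested.

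Dhrs9 was higher after cold in both genotypes. In WT the rise was 4.68 ± 0.33 (SE) on the log2 scale, or 25.7-fold (limma, adjusted p = 5.72e-06), rank 8 of all genes from the highest. In KO the difference was 7.25 ± 0.33, which is given without a test because the low KO arrays at 22 °C that chose the gene are its baseline. No cold array of either genotype overlapped a room temperature array. The WT rise, too, shares its room temperature arrays with the difference that chose Dhrs9. The KO difference exceeded the WT rise by 2.56 ± 0.46 (SE; interval 1.56 to 3.56), a value that contains the choosing difference and is given without a test. Leaving out any 1 array kept the WT rise between 4.49 and 5.03, and the KO difference between 6.97 and 7.54.

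**Figure D1:**
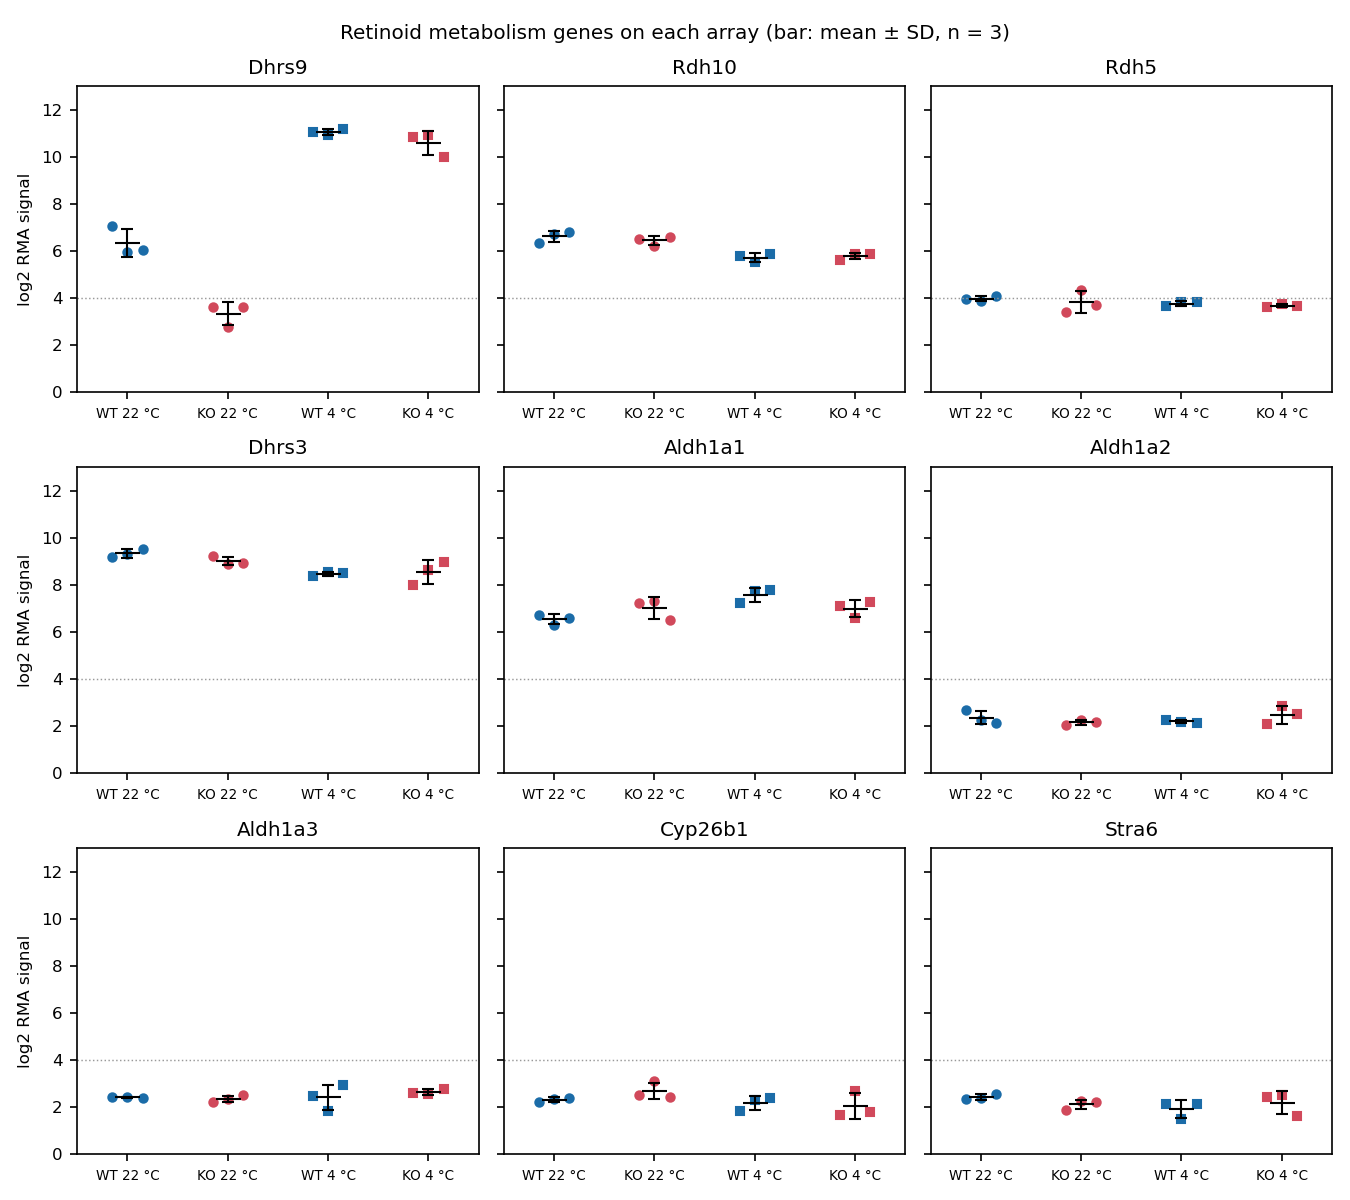
Log2 signal (vertical axis) of the 9 genes on each array, with points for arrays, bars for the group mean ± SD (n = 3) and a dotted line at 4, in WT and KO at 22 °C and after 4 h at 4 °C. Dhrs9 spans 2.77 to 11.15 across the arrays, while Aldh1a2, Aldh1a3, Cyp26b1 and Stra6 stay at or under 3.08 on all arrays.

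Some cell type marker lists moved beside Dhrs9 at room temperature. Of all genes, 0.550% were called in that comparison. The mean of 11 brown adipocyte genes was 8.96 to 9.13 on the WT arrays and 8.25 to 8.52 on the KO arrays. In KO 3 of the 11 were called lower. The median difference of the list was only -0.14, and the 3 called genes were Dio2 (-3.55), Ucp1 (-0.80) and, between them in size, Elovl3, of which Dio2 and Elovl3 are named after their values were seen. After cold the same mean was 9.79 to 9.83 in WT and 9.72 to 9.79 in KO. A list of 12 macrophage genes averaged 5.71 to 6.04 in WT and 6.45 to 6.80 in KO at 22 °C, with none of the 12 called. The T cell list read 2.96 to 3.24 in WT and 3.29 to 3.97 in KO, with 1 of 8 genes called higher. Besides the macrophage list, those with no gene called but no overlap either were neutrophils (1.91 to 2.08 in WT, 2.11 to 2.65 in KO) and white adipocytes (4.14 to 4.54 and 4.63 to 4.96). The T cell and neutrophil list means were all under 4, near background. Skeletal muscle genes, 21 in the list, varied widely between arrays: 2.96 to 6.17 in WT and 3.41 to 8.27 in KO at 22 °C, 5.01 to 7.50 in WT and 4.43 to 8.08 in KO after cold. None of the 21 was called in any comparison, where the shares of all genes called ran from 0.0271% to 19.2%. With the muscle mean as a covariate the Dhrs9 difference at room temperature was -2.81 and its cold differences were 4.91 in WT and 7.29 in KO. The part of the other lists in the Dhrs9 values was not tested.

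Rdh10 encodes the enzyme that carries out much of the retinol oxidation in developing tissues. It fell with cold in both genotypes, the opposite direction to Dhrs9. The WT arrays read 6.32, 6.71 and 6.79 at 22 °C and 5.77, 5.50 and 5.85 at 4 °C. The KO arrays read 6.51, 6.20 and 6.59 at 22 °C and 5.63, 5.85 and 5.87 at 4 °C. In each genotype all cold arrays were below all room temperature arrays. The difference was -0.90 ± 0.16 (SE) in WT, or 1.87-fold lower (limma, adjusted p = 0.00247). In KO it was -0.65 ± 0.16, or 1.57-fold lower (limma, adjusted p = 0.0147). The KO call was lost without KO room temperature replicate 1 (adjusted p = 0.0501) or 3 (0.0602), or without KO cold replicate 1 (0.0509). Knockout and wild type overlapped at both temperatures, with differences of -0.17 ± 0.16 at 22 °C (limma, adjusted p = 0.766) and 0.08 ± 0.16 after cold (adjusted p = 0.880).

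Dhrs3, the reductase that returns retinaldehyde to retinol, fell with cold in WT. It read 9.17, 9.30 and 9.53 on the WT arrays at 22 °C and 8.37, 8.54 and 8.48 after cold. These groups did not overlap, and the difference was -0.87 ± 0.21 (SE), or 1.83-fold lower (limma, adjusted p = 0.0141). The call was lost without WT room temperature replicate 3 (-0.77, adjusted p = 0.0543) or WT cold replicate 1 (-0.82, adjusted p = 0.0547). On the KO arrays Dhrs3 read 9.22, 8.90 and 8.93 at 22 °C and 7.97, 8.64 and 8.96 after cold. KO cold replicate 3 reached into the room temperature range. The KO difference of -0.49 ± 0.21 did not pass the threshold (limma, adjusted p = 0.141), though without that array it was -0.71 (adjusted p = 0.0273). The cold differences of WT and KO were not shown to differ (0.37 ± 0.30, limma, adjusted p = 0.686). With cold, 17.4% of all genes were called in WT and 19.2% in KO. Beside the falls of Rdh10 and Dhrs3, 4 of 9 mural and smooth muscle genes were lower in the cold in each genotype. In KO 1 of the 9 was higher. In WT their list mean was 8.03 to 8.23 at 22 °C and 7.77 to 7.86 after cold. In KO it was 7.93 to 8.09 at 22 °C and 7.65 to 7.88 after cold. The part of these cells in the 2 falls was not tested.

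Rdh5, known as the 11-cis-retinol dehydrogenase of the retinal pigment epithelium, read 3.41 to 4.32 over the 12 arrays. None of its comparisons passed, with limma adjusted p-values of 0.541 to 0.952.

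Aldh1a1, a retinaldehyde dehydrogenase of many adult tissues, rose with cold in WT. Its WT arrays read 6.71, 6.29 and 6.60 at 22 °C and 7.23, 7.72 and 7.77 after cold, with no overlap. The difference was 1.04 ± 0.25 (SE), or 2.05-fold (limma, adjusted p = 0.0121). It was 0.91 without WT room temperature replicate 2 (adjusted p = 0.0527) and 0.94 without WT cold replicate 3 (adjusted p = 0.0546), past the threshold in neither. The KO arrays read 7.21, 7.32 and 6.49 at 22 °C and 7.09, 6.57 and 7.27 after cold. These overlapped fully, and the KO difference was -0.03 ± 0.25 (interval -0.57 to 0.51; limma, adjusted p = 0.961). The KO response fell short of the WT response by 1.07 on the log2 scale, a difference of -1.07 ± 0.35 (SE) that did not pass the test of the difference itself (limma, adjusted p = 0.334). Between genotypes Aldh1a1 differed by 0.47 ± 0.25 at 22 °C (limma, adjusted p = 0.513) and by -0.59 ± 0.25 after cold (adjusted p = 0.297).

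Beside the Aldh1a1 rise in WT, 6 of 12 macrophage genes were called higher in WT cold, where their list mean was 6.33 to 6.74 against 5.71 to 6.04 at 22 °C. In that comparison 17.4% of all genes were called. Of 8 T cell genes 1 was called higher, no more than that share. The T cell list means were 3.26 to 3.91 against 2.96 to 3.24, all under 4 and near background. The part of these cells was not tested. With the muscle mean as a covariate the Aldh1a1 difference was 0.76 (limma, adjusted p = 0.0417). Its near copy Aldh1a7, a neighbouring gene on the same chromosome, went the other way, with cold differences of -0.79 ± 0.22 in WT and -0.94 ± 0.22 in KO (limma, adjusted p = 0.0276 and 0.0105). The WT call of Aldh1a7 was lost in 4 of 15 alternative settings. Whether the probes of either gene also read the other's transcripts was not tested.

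Aldh1a2 and Aldh1a3, the other retinaldehyde dehydrogenases of the family, stayed near background. Aldh1a2 read 2.05 to 2.82 and Aldh1a3 1.84 to 2.92 over the 12 arrays. Neither was called in any comparison. A list of 10 mesothelial genes, a lining cell type known for Aldh1a2, also lay near background at 2.02 to 2.20.

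Cyp26b1, which breaks retinoic acid down, and Stra6, the cell surface receptor for the plasma retinol carrier, were as dim. Cyp26b1 ranged from 1.64 to 3.08 and Stra6 from 1.48 to 2.55. The Cyp26b1 difference with cold in KO was -0.63 ± 0.26 (limma, adjusted p = 0.128). It became -0.95 without KO cold replicate 2 (adjusted p = 0.0131), the highest of that group. The Stra6 difference with cold in WT was -0.51 ± 0.24 (limma, adjusted p = 0.180).

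**Figure D2:**
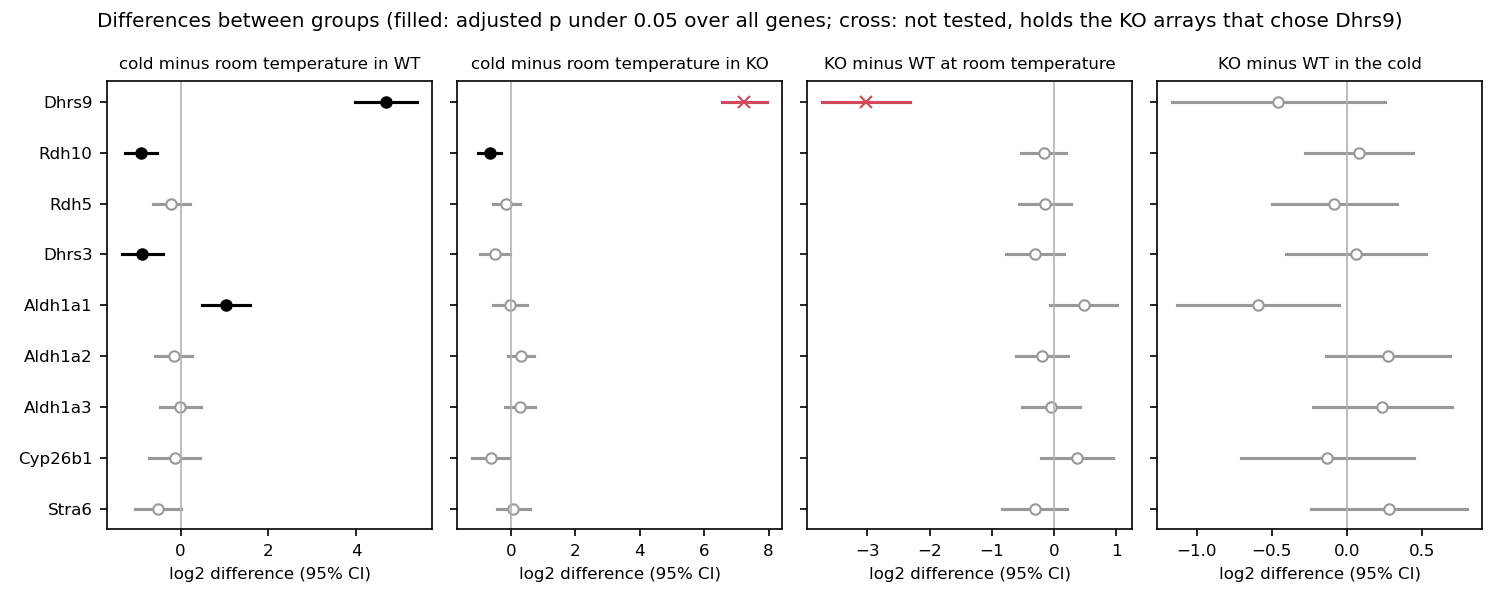
Differences in log2 signal of the 9 genes (horizontal axis, with its own range in each panel) in the 4 pairwise comparisons, with limma 95% confidence intervals. Filled points have an adjusted p under 0.05 over all genes, and crosses mark the Dhrs9 differences that hold the KO arrays that chose the gene and were not tested (-3.02 at 22 °C and 7.25 with cold). Rdh10 lies below 0 with cold in both genotypes, and Aldh1a1 above 0 with cold in WT.

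Set against all genes, the 9 were called as follows at an adjusted p under 0.05. With cold in WT, 4 of 9 were called (Dhrs9 and Aldh1a1 higher, Rdh10 and Dhrs3 lower), where 17.4% of all genes were called. These are the 4 with a mean of at least 5, which 38.2% of all genes reached, and which Dhrs9 reached through its cold groups. The Dhrs9 call shares its room temperature arrays with the difference that chose the gene. With cold in KO, 2 of 9 crossed the threshold (Dhrs9 higher, Rdh10 lower), near the share of all genes, 19.2%, and the Dhrs9 count rests on the arrays that chose it. Between genotypes at 22 °C Dhrs9 alone crossed the threshold, which is the choice itself, and 0.550% of all genes did. Between genotypes after cold none of the 9 was called by limma, 0.911% of all genes were, and 3197 of 22180 genes had an unadjusted p under 0.05. For the genotype by temperature interaction limma called none of the 9 and 0.0271% of all genes, with 2324 genes at an unadjusted p under 0.05. The median difference of the 9 genes was -0.16 with cold in WT and -0.03 in KO, beside -0.02 and 0.00 over all genes. Between genotypes it was -0.17 at 22 °C and 0.06 after cold, beside 0.01 over all genes at each temperature. For the interaction it was 0.29, beside -0.01 over all genes.

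The wider retinoid pathway was read from lists of 55 further genes, of which 52 were measured and 27 had a mean of at least 5. With cold, 2 rose and 8 fell in WT, and 5 rose and 7 fell in KO, which of 52 genes is close to the shares of all genes called (17.4% in WT and 19.2% in KO). Between genotypes 1 fell at 22 °C and none was called after cold by limma, where 0.550% and 0.911% of all genes were called. None was called for the interaction, against 0.0271% of all genes. With shares this small, counts this low among 52 genes are no result about the lists. The lists' median difference was -0.04 in WT and 0.02 in KO with cold.

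Among the carriers, Rbp7, an intracellular retinol-binding protein, rose in both genotypes. It read 6.32, 5.35 and 6.56 in WT at 22 °C and 8.92, 8.76 and 8.47 after cold. On the KO arrays it read 6.02, 6.01 and 6.87 at 22 °C and 8.40, 8.62 and 9.16 after cold. The groups did not overlap in either genotype. The rise was 2.64 ± 0.32 (SE), or 6.24-fold, in WT and 2.43 ± 0.32, or 5.38-fold, in KO (limma, adjusted p = 2.07e-04 and 2.95e-04). Between the genotypes these rises differed by -0.21 ± 0.46 (limma, adjusted p = 0.897).

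Of 18 other genes listed for the step between retinol and retinaldehyde, 1 rose and 4 fell in WT, and 1 rose and 2 fell in KO. Of all genes, 17.4% were called with cold in WT and 19.2% in KO. Counts this small among 18 genes are no result about the list. Rdh13, a mitochondrial member of the retinol dehydrogenase family, was the riser in both, by 1.72 ± 0.23 in WT and 1.39 ± 0.23 in KO (limma, adjusted p = 3.53e-04 and 0.00119). It has more than 1 probe set, and with their mean in place of the brightest the WT rise was 0.82 (adjusted p = 0.00564). Dhrs7 fell by 0.85 in WT and by 0.84 in KO (SE 0.14 each; limma, adjusted p = 0.00121 and 0.00117). Its relative Dhrs7b fell by 0.67 in WT (SE 0.14, limma, adjusted p = 0.00537) and differed by -0.32 in KO (adjusted p = 0.136). Dhrs7b is 1 of the 4 that fell in WT, but its listing does not show that it acts on retinol. Its fall is therefore not read as a change in retinoid oxidation. Adh4 is also among the 4 that fell in WT. Its WT means were 2.03 at room temperature and 1.32 after cold, both near background, so its call is not read further. Adh1, a cytosolic alcohol dehydrogenase that also oxidises retinol, fell by 0.81 in WT (SE 0.15, limma, adjusted p = 0.00267) and differed by -0.44 in KO (adjusted p = 0.0625). Adh1 has 2 probe sets. Its WT difference ran from -0.89 to -0.55 over 15 alternative settings and was called in all of them. Dgat1, which can esterify retinol besides its main work on triglycerides, rose by 0.77 ± 0.16 in KO (limma, adjusted p = 0.00412) and differed by 0.27 in WT (adjusted p = 0.283). For Dhrs7b, Adh1 and Dgat1 the cold responses of the genotypes were not shown to differ. Their interactions were 0.34 ± 0.20, 0.38 ± 0.21 and 0.50 ± 0.22 (limma, adjusted p = 0.565, 0.563 and 0.455).

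**Figure D3:**
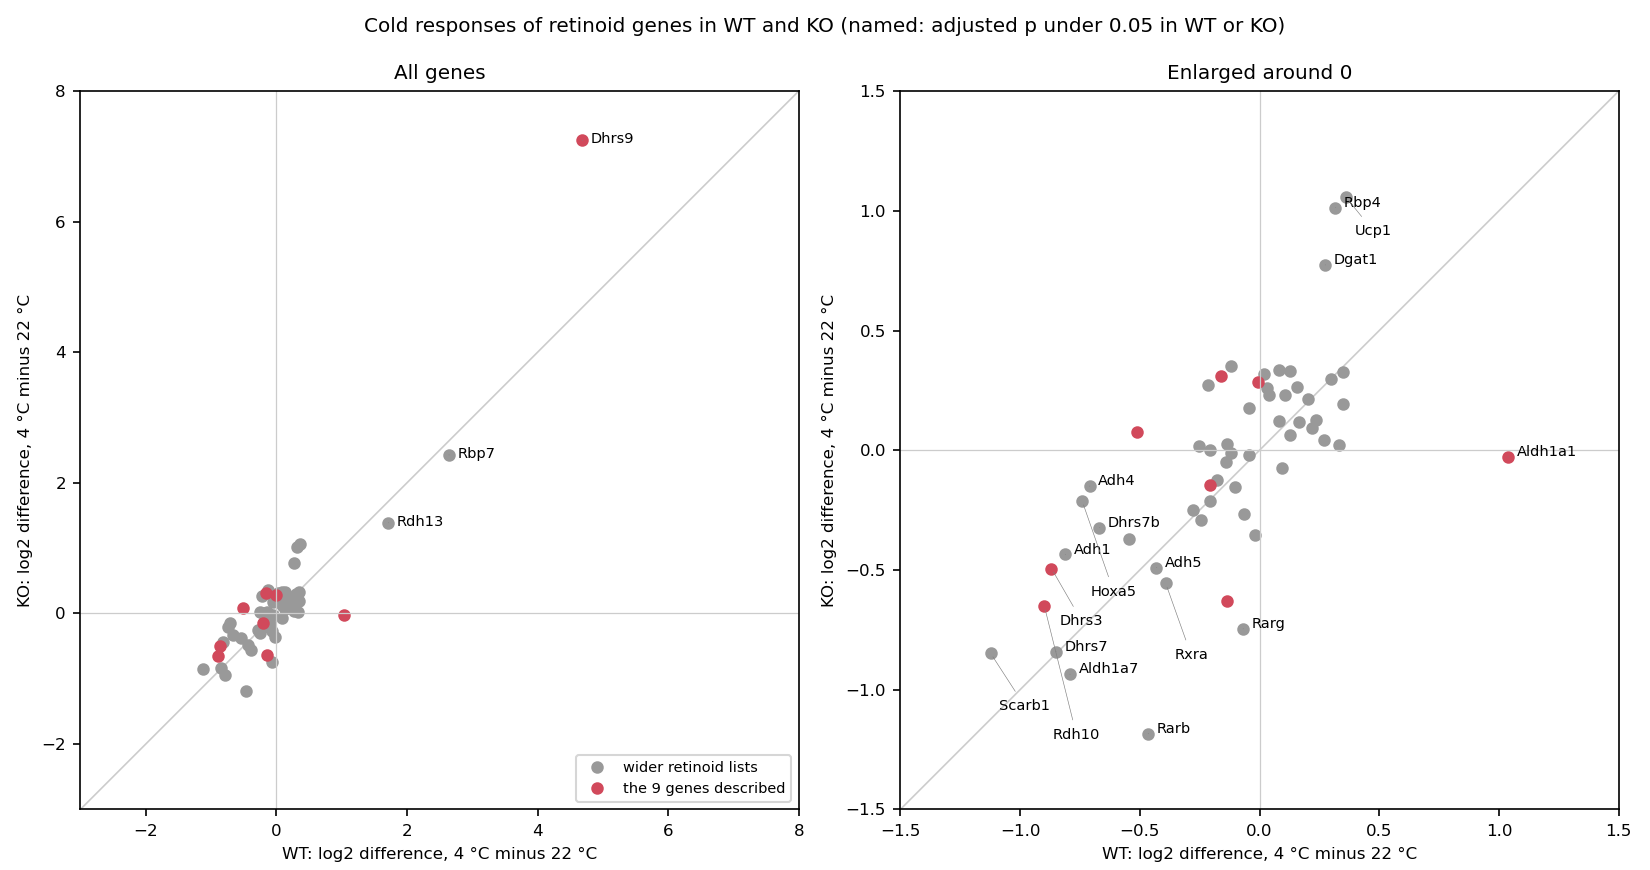
Difference in log2 signal after cold in WT (horizontal axis) against KO (vertical axis), for the 9 genes in red and the 52 measured genes of the wider lists in grey, with the area around 0 enlarged on the right. Dhrs9 stands apart at 4.68 in WT and 7.25 in KO, followed by Rbp7 at 2.64 and 2.43, and most other genes lie within 1 unit of 0.

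Of the 6 retinoic acid and retinoid X receptors, 1 fell with cold in WT and 3 fell in KO, and none was called higher, where 17.4% of all genes were called in WT and 19.2% in KO. Rarb, which is itself a classical retinoic acid target, read 6.01, 6.18 and 6.55 in KO at 22 °C and 4.81, 4.84 and 5.54 after cold. In WT it read 5.91, 6.10 and 6.87 at 22 °C and 5.64, 5.79 and 6.05 after cold. The KO groups did not overlap and the WT groups did. The difference was -1.18 ± 0.27 (SE) in KO (limma, adjusted p = 0.00767) and -0.47 ± 0.27 in WT (adjusted p = 0.284).

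Rarg differed by -0.75 ± 0.18 with cold in KO (limma, adjusted p = 0.0119) and by -0.07 ± 0.18 in WT (adjusted p = 0.860). Its signal was low, and the KO cold arrays read 4.08, 4.60 and 4.05, not far above background. The responses of the 2 genotypes were not shown to differ for either receptor, with interactions of -0.72 ± 0.38 for Rarb (limma, adjusted p = 0.532) and -0.68 ± 0.26 for Rarg (adjusted p = 0.387). Rxra, a partner of many nuclear receptors, fell by 0.56 in KO (SE 0.12, limma, adjusted p = 0.00712). It also fell by 0.39 in WT (SE 0.12, limma, adjusted p = 0.0464), a call lost in 9 of 15 alternative settings. Rara and Rxrb were not called. Rxrg differed by 0.35 in WT (limma, adjusted p = 0.0710) and 0.33 in KO (adjusted p = 0.0845).

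**Figure D4:**
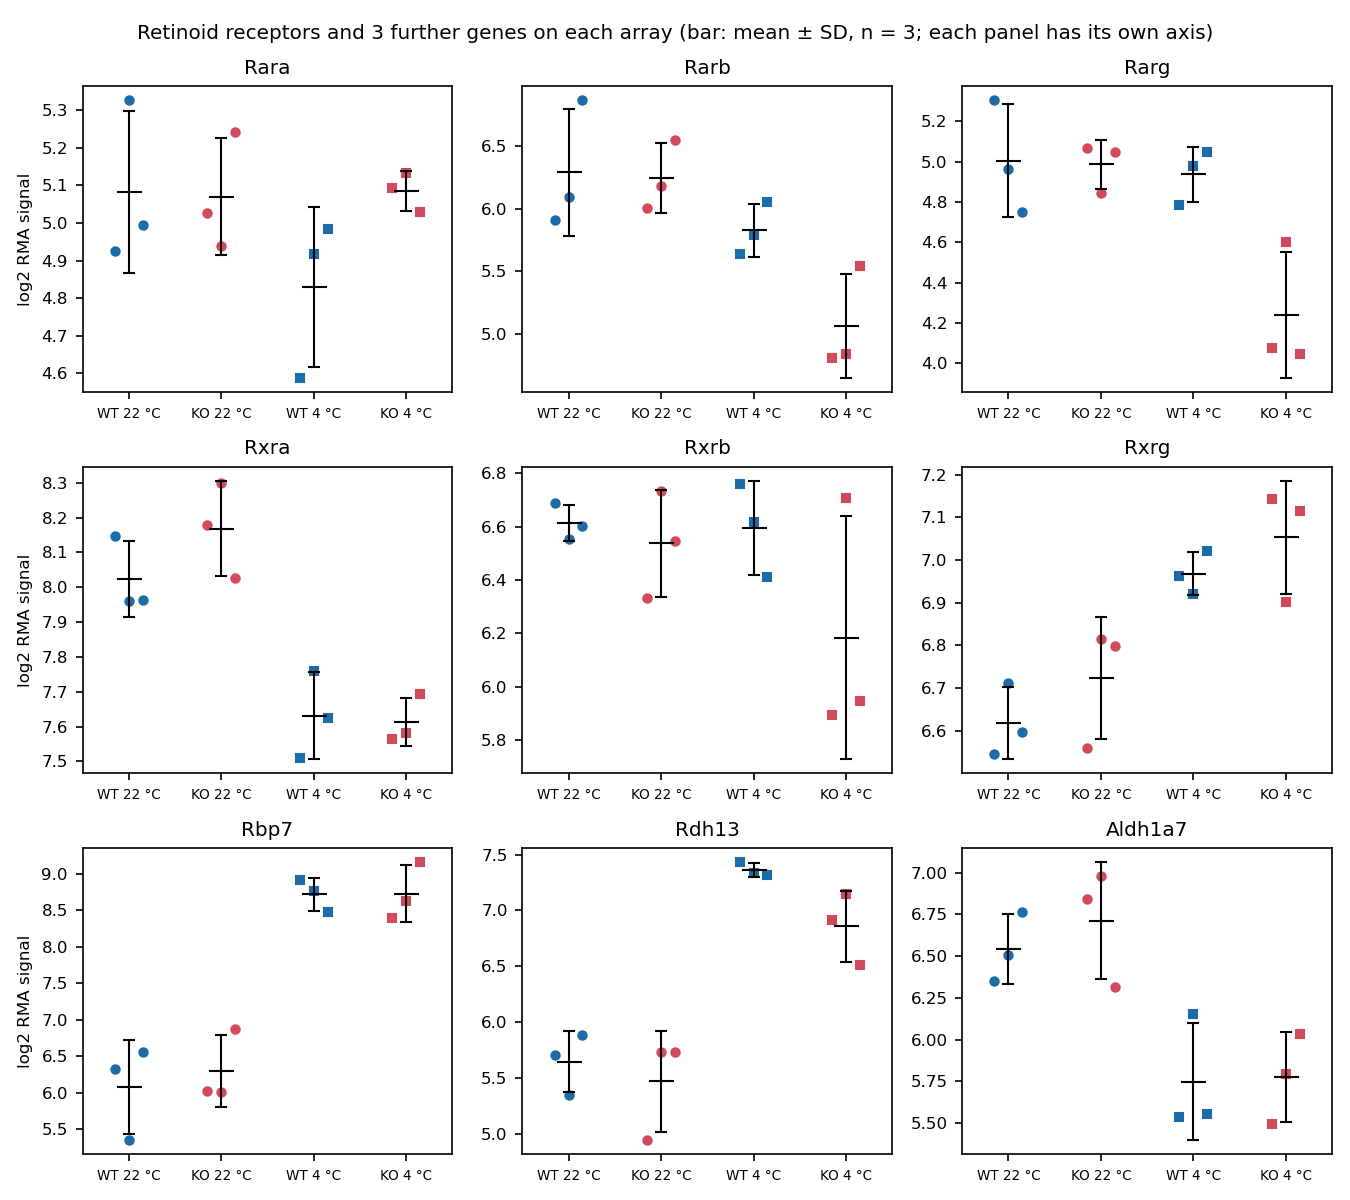
Log2 signal (vertical axis) of the 6 RAR and RXR receptor genes and of Rbp7, Rdh13 and Aldh1a7 on each array, with points for arrays and bars for the group mean ± SD (n = 3), each panel on its own axis. Rarb and Rarg are lowest on the KO arrays after cold, where Rarb reads 4.81, 4.84 and 5.54.

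Among genes known to respond to retinoic acid, Ucp1 was lower in KO at 22 °C. It read 12.68, 12.41 and 12.50 in WT and 12.01, 11.61 and 11.55 in KO, a difference of -0.80 ± 0.14 (SE; limma, adjusted p = 0.0257). The call was lost in 6 of 15 alternative settings, 4 of them with 1 array left out. Ucp1 rose with cold in KO by 1.06 ± 0.14 (limma, adjusted p = 2.80e-04) and differed by 0.36 ± 0.14 in WT (adjusted p = 0.101). Its WT signal lay near the top of the range, with array maxima of 13.37 to 13.52. Whether this limited the WT difference was not tested. Hoxa5, a homeobox gene, fell with cold in WT by 0.74 (SE 0.10, limma, adjusted p = 4.58e-04) and differed by -0.21 in KO (adjusted p = 0.195). The cold responses of the 2 genotypes were not shown to differ for either gene. The interactions were 0.69 ± 0.20 for Ucp1 (limma, adjusted p = 0.282) and 0.53 ± 0.15 for Hoxa5 (adjusted p = 0.266). None of the 6 measured genes of this list was called between genotypes after cold, where 0.911% of all genes were.

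The genes whose log2 signal followed Dhrs9 most closely over the 12 arrays, of 8036 with a mean of at least 5, were Adam12 (Pearson r = 0.990), Ackr3 (0.988), Gars (0.987), Slc35a4 (0.984) and Spry4 (0.983). The 12 arrays share 4 group means, so these values are a description and no test is attached. Adam12, a membrane metalloprotease, was lower in KO at 22 °C by a difference of -1.33 and higher after cold by 2.12 in WT and 3.29 in KO. Ackr3, an atypical chemokine receptor, differed by -1.25, 1.37 and 2.55 in the same comparisons. Both patterns have the signs of Dhrs9 at smaller size, which follows from picking genes by their correlation with Dhrs9 on these arrays. At 22 °C the differences of Gars (-0.42), Slc35a4 (-0.30) and Spry4 (-0.64) were smaller and were not called. The genes most like Rdh10, the other member with the widest spread of group means, were Agrn (0.977), Cdk6 (0.973), Itpr2 (0.970), Ppm1a (0.968) and Tie1 (0.966). Tie1 is an endothelial receptor, and the mean of 10 endothelial genes lay between 8.33 and 8.69 on all arrays. Its members went both ways with cold, with 1 higher and 1 lower in WT and 2 higher and 3 lower in KO. Tie1 was among the lower ones in both. Of all genes, 17.4% were called in WT and 19.2% in KO. The part of the endothelial genes in the Rdh10 values was not tested.

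**Figure D5:**
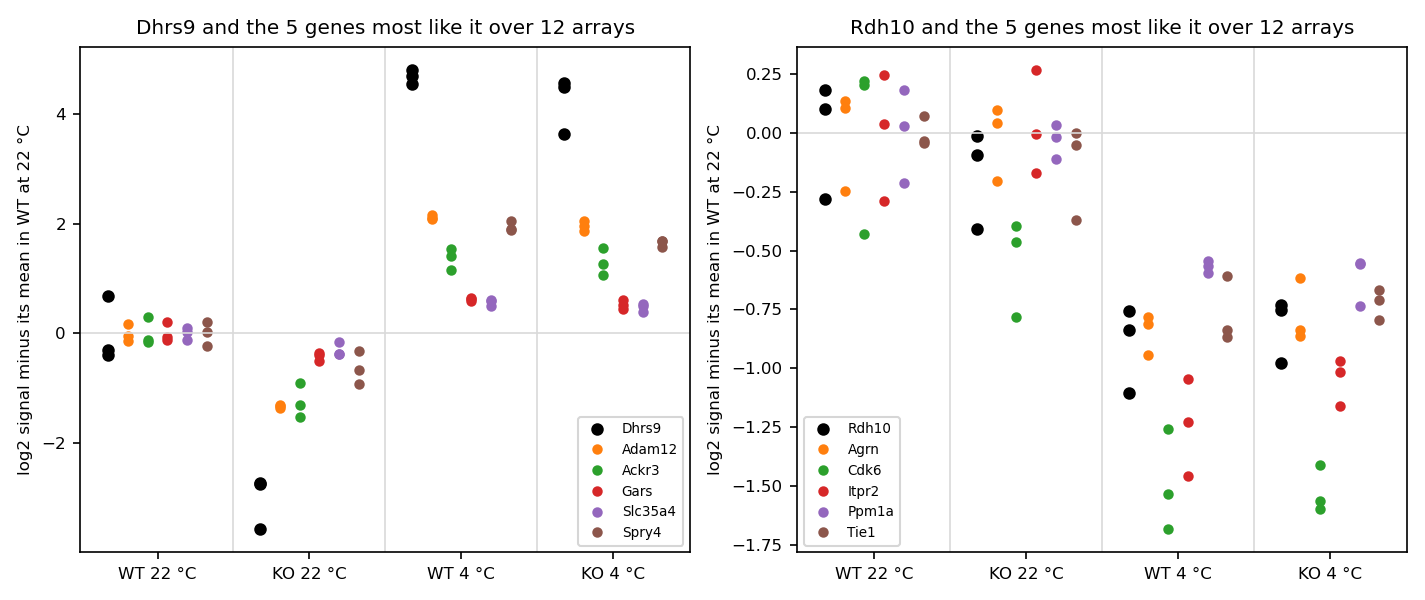
Log2 signal minus its mean in WT at 22 °C (vertical axis) on each array, for Dhrs9 with the 5 genes most like it (left) and Rdh10 with the 5 most like it (right). The Dhrs9 set is low in KO at 22 °C and high after cold, and the Rdh10 set is low after cold in both genotypes.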

How the data were processed

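Total RNA (400 ng per sample) was hybridised to Affymetrix whole-transcript arrays, per the labels' protocols. The deposited values are the authors' log2 signals, and the submitters' processing notes name oligo, RMA and limma without versions or order; a genome build is not given in the sources used here. Of 41345 probe sets, 23521 had 1 gene symbol in the platform annotation, 1814 had several and 16010 none; genes were read through the brightest probe set over the 12 arrays, giving 22180 genes. The number of arrays limits the precision.

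All 12 arrays were fitted with 1 mean per group (limma 3.58.1 in R 4.3.3, eBayes), with Benjamini-Hochberg adjusted p-values over all genes per comparison and a threshold of 0.05. The script was tested on simulated data. Alternatives were averaging all probe sets of a gene, a filter on mean signal, cyclic loess, median centring, trended and robust spread, array weights, a replicate block, only the arrays compared, a muscle covariate and leaving out each array.

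Named from the wider lists were up to 4 genes per direction and comparison with the smallest p, plus Ucp1 and the 6 receptors; genes most alike were the 5 of highest Pearson r to Dhrs9 and to the other member with the largest spread of group means. The members and lists were chosen with earlier results of these data known. Promoter sequences come from RefSeq on GRCm38.p6.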

Additional observations from a re-analysis of the deposited data

How the results depend on the processing

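The cold rise of Dhrs9 and the cold fall of Rdh10 in WT kept their direction and their side of the threshold in all 15 alternative settings run for each. The number of the 9 genes called with cold in KO ranged from 1 to 3 when 1 array was left out; it was 1 without KO room temperature replicate 1 or 3 or KO cold replicate 1, where the Rdh10 call was lost. For the interaction the count over the 9 was 1 in place of 0 with the filter on mean signal and with array weights. That 1 is Dhrs9, whose interaction contains the choosing difference and which passes the filter through its cold groups, so the count is no result. Differences near 0 turned sign in 13 results, none past the threshold. Settings on all arrays turned Cyp26b1 between genotypes after cold (0.10 with array weights), Aldh1a3 with cold in WT (0.018 with cyclic loess) and Aldh1a1 with cold in KO (0.035 with cyclic loess, 0.048 with median centring). With 1 array left out, the differences at 22 °C spanned -0.40 to 0.054 for Rdh5 and -0.12 to 0.0087 for Aldh1a3. Those after cold spanned -0.16 to 0.34 for Dhrs3, -0.024 to 0.16 for Rdh10, -0.046 to 0.49 for Aldh1a3 and -0.45 to 0.071 for Cyp26b1. With cold in WT they spanned -0.27 to 0.0038 for Aldh1a2, -0.27 to 0.27 for Aldh1a3 and -0.25 to 0.035 for Cyp26b1. With cold in KO they spanned -0.35 to 0.11 for Rdh5, -0.29 to 0.17 for Aldh1a1 and -0.084 to 0.36 for Stra6. The Rdh5 interaction spanned -0.14 to 0.32. The cause of these turns was not tested.

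The labels' replicate numbers did not pair the arrays: same-numbered arrays deviated from their group means with r of -0.54 to 0.45, and 6 of 18 pairs were over 0.1. With the replicate block, 4 of the 9 genes were called with cold in WT and 2 in KO, as without it. Of the 9 genes, 5 had all group means under 4, near background.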
